A study of Mus musculus with 15 samples.

Results

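Mouse bone marrow derived macrophages exposed to lipopolysaccharide (LPS) of E. coli together with interferon-gamma were compared with macrophages that received neither. The 3 arrays titled M1 and the 3 arrays titled M0 were chosen by their titles, 6 of the 15 arrays of the series. All of these cells had been cultured for 7 days in M-CSF, the growth factor that drives marrow progenitors to become macrophages. The M0 group then received no agent, and the M1 group was polarized with LPS and interferon-gamma, which the labels write as INF-g. The other 9 arrays hold IL4 and IL13 polarized (M2) cells, without and with the MDM2 inhibitor nutlin-3a or the MYC inhibitor 10058F4, and the series title places p53 at its centre. The labels give no concentration, length of exposure, or strain, sex and age of the mice. They call the arrays biological replicates without saying whether each came from its own mouse, so a p-value below measures the spread between cultures. Each standard error (SE) and p-value rests on a spread per gene that is shared by all 15 arrays, M2 cultures included. Where the M1 arrays of a gene scatter more than the others, its SE can understate that scatter.

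LPS, a glycolipid on the surface of Gram-negative bacteria, is detected by Toll-like receptor 4 with its partners CD14 and MD-2, and drives NF-kappa-B, AP-1 and IRF3, the last of which induces interferon-beta. Interferon-gamma, made by T cells and natural killer cells, binds its own receptor and turns on IRF1 and other factors. Macrophages that receive both signals are known for microbial killing, antigen presentation and inflammatory cytokine release.

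The values are log2 expression, 1 probe set per gene. A difference is the M1 mean minus the M0 mean on that log2 scale, so that 1 is a doubling, and a gene was called higher or lower at an adjusted p under 0.05 (limma, Benjamini-Hochberg over all genes tested). Among 13703 genes tested, 9963 were called (72.7%), 4601 higher (33.6%) and 5362 lower (39.1%). By at least 2-fold, 783 were called higher (5.71%) and 1737 lower (12.7%). The M0 and M1 arrays did not overlap for 9766 genes (71.3%), so a call alone sets a gene apart from few others and the size of the change is given throughout. The largest rises went further than the largest falls: 82 genes were called higher by at least 16-fold and 35 lower by as much, and at 64-fold the counts were 20 and 2.

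**Figure D1:**
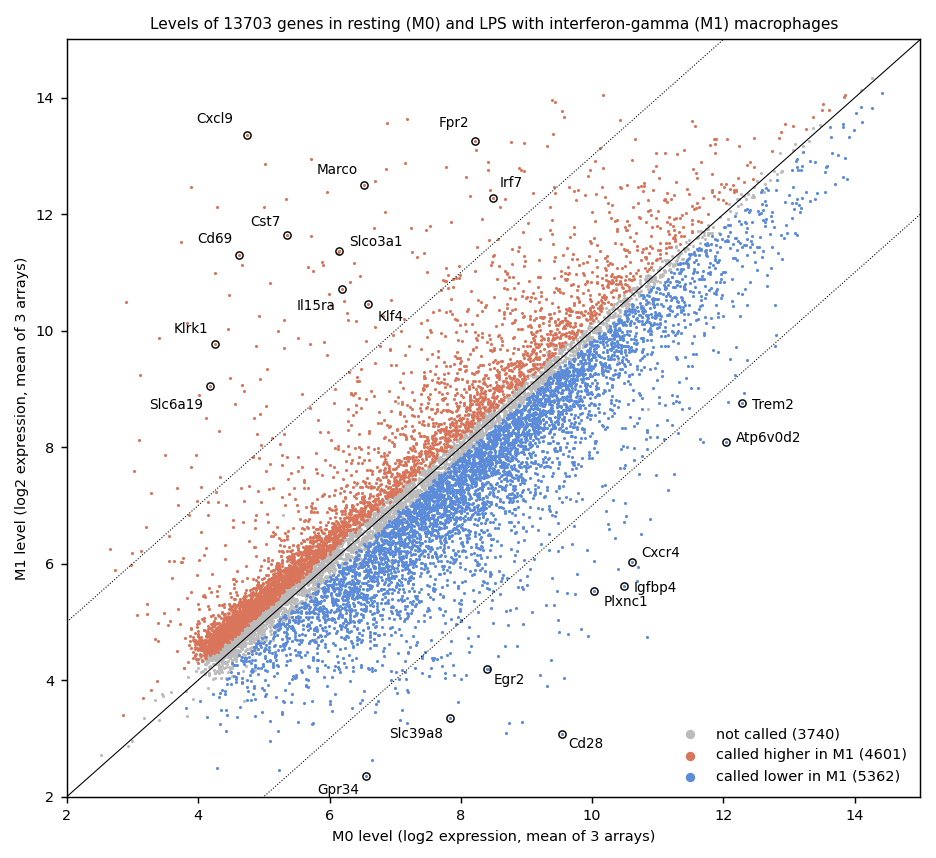
Each point is 1 of 13703 genes, with its mean log2 expression over the 3 M0 arrays on the horizontal axis and over the 3 M1 arrays on the vertical axis. Orange points were called higher in M1 (4601), blue points lower (5362) and grey points neither (3740); the solid line marks equal levels, the dotted lines an 8-fold difference, and the circles some genes described in the text. At the low end of the scale many orange points lie just above the solid line, while blue points spread below it in the middle of the scale.

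Small changes depended on level and on scaling. Among genes with a mean level under 5, 49.2% were called higher and 9.36% lower, whereas between 7 and 8 the shares were 21.1% and 57.6%. Centring every array on the median of the tested genes, a setting chosen after seeing the data, moved the median difference from -0.0048 to 0.321. It called 7619 genes higher and 3505 lower, so that 68.5% of calls were higher against 46.2% on the deposited scale. Centring on the median of all probe sets called 3862 higher and 5754 lower, 40.2% higher. Below, "recentred" names the first of these settings. It turned the balance of changes of at least 2-fold as well, from 783 genes higher and 1737 lower to 1252 and 1066. Of the 52 gene lists, 31 had more members lower than higher by at least 2-fold as deposited and 12 recentred, so 2-fold counts are given with the recentred ones wherever these turn or even out the balance. A list's deposited counts at 2-fold compare with 5.71% higher and 12.7% lower of all genes. Its recentred counts compare with the recentred counts of all genes, not with those shares.

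The cells carried macrophage transcripts in both groups. All 14 measured macrophage markers were tested, and their summed level was 16.30 to 16.34 in M0 and 16.22 to 16.27 in M1 on the log2 scale. The sum is over unlogged values, so the brightest genes weigh most in it. Singly, 7 were called higher and 5 lower, with Fcgr1 higher by 1.98 and Cebpa lower by 2.84. Markers of other cells were partly at low levels: Cd3g, Nkg7 and Gzma, Ms4a1, Cxcr2, and Kit, Fcer1a, Cpa3, Mcpt8 and Ms4a2 stayed under the detection filter on all 6 arrays. The summed level of dendritic cell markers was 8.61 to 8.82 in M0 and 9.26 to 9.51 in M1. Of 8 tested, 5 were called higher. For T and NK cell markers the sums were 7.64 to 7.79 and 8.04 to 8.22. All 5 tested were called higher, by 0.34 to 0.59, at group means from 4.28 to 6.38. Among all genes, 49.2% were called higher at a mean level under 5, 43.2% from 5 to 6 and 28.0% from 6 to 7. B cell markers summed to 9.85 to 10.05 in M0 and 8.60 to 9.04 in M1. Of 5 tested, 2 were called higher and 2 lower. Ighm fell most, by 2.16, while 3 of its 11 probe sets were called higher and 2 lower. Neutrophil markers summed to 8.90 to 9.01 and 8.95 to 9.16, with 4 of 7 called higher and 1 lower. Mast cell and basophil markers summed to 6.87 to 7.04 and 7.46 to 7.53, with 2 of 2 called higher. Stromal and endothelial markers summed to 8.83 to 9.60 and 8.59 to 9.50, with 1 of 6 called each way. Of erythroid markers 1 was tested and it was not called. In bulk RNA, fewer cells of a type and less RNA per cell cannot be told apart, and the part of other cells in the results below was not tested. Arrays correlated at 0.9956 to 0.9966 within M0, 0.9894 to 0.9944 within M1 and 0.9374 to 0.9476 between them. M1 replicate 2 stood somewhat apart: of 2520 genes called with at least a 2-fold change, it was the M1 array nearest to M0 for 1307 (51.9%). The difference between 3′ and 5′ control probe sets, a measure of RNA integrity, was 0.351 ± 0.0543 for beta-actin in M0 and 0.178 ± 0.0444 in M1 (SD, n = 3), and -0.273 ± 0.015 and -0.162 ± 0.0347 for Gapdh.

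**Figure D2:**
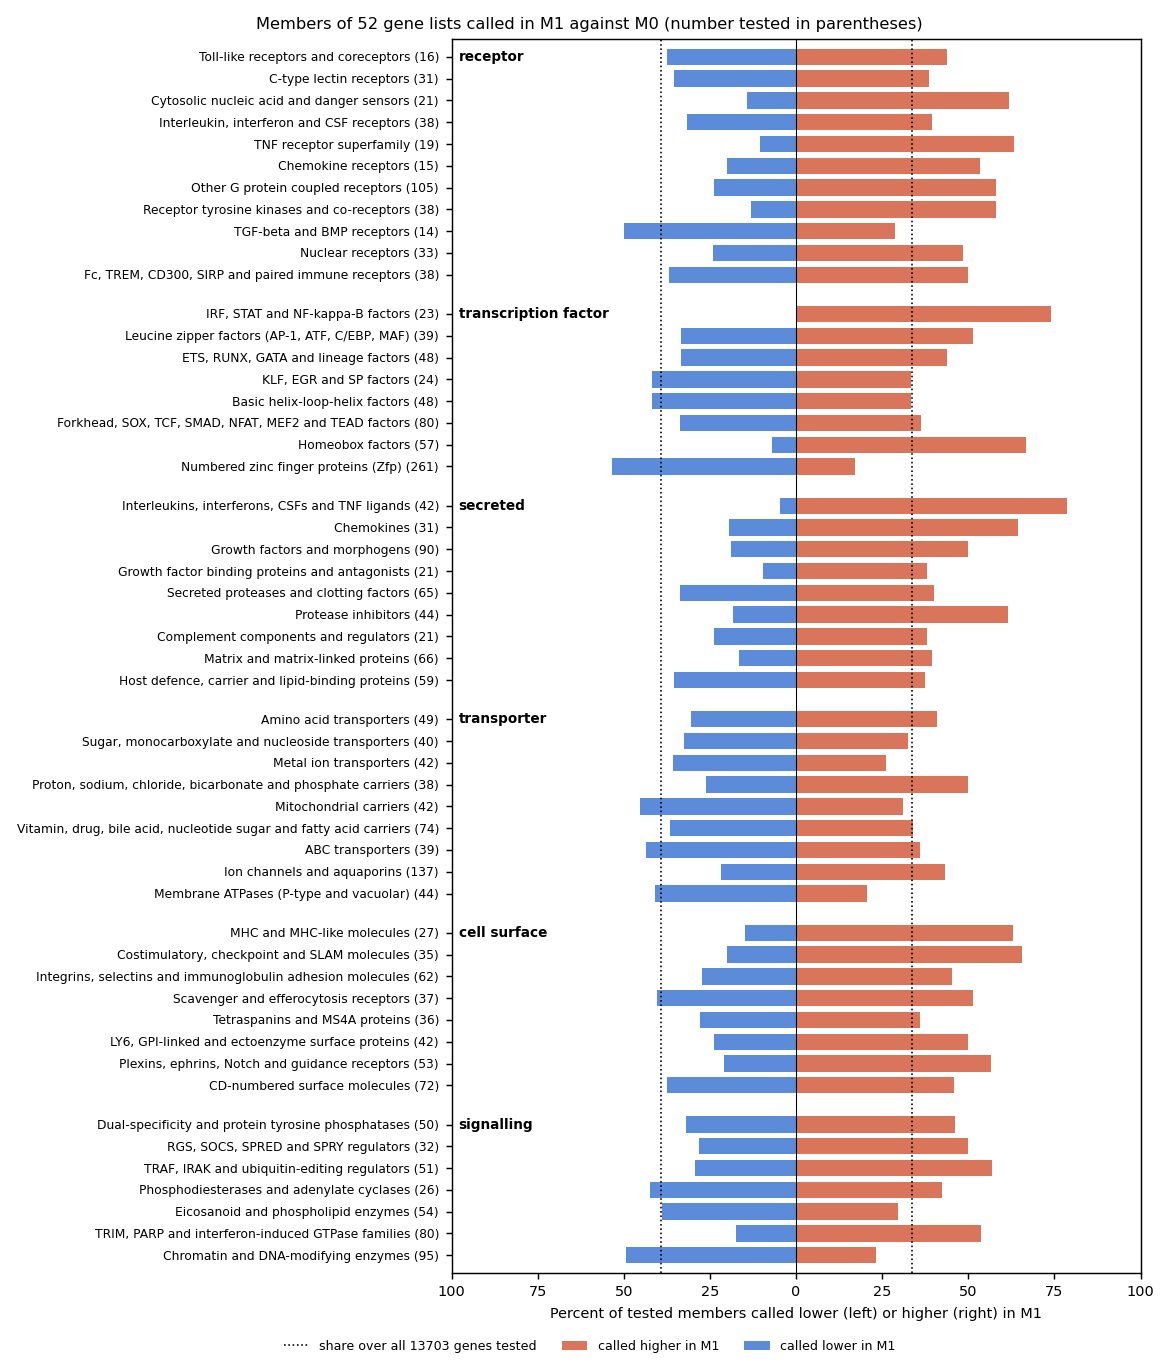
Bars show, for 52 gene lists grouped by class, the percent of tested members called higher in M1 (right, orange) and lower (left, blue), with the number tested in parentheses. The dotted lines mark the shares over all 13703 genes, 33.6% higher and 39.1% lower; IRF, STAT and NF-kappa-B factors (17 of 23 higher, none lower) and interleukins, interferons, CSFs and TNF ligands (33 of 42 higher) reach farthest to the right, and numbered zinc finger proteins (140 of 261) farthest to the left.

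Receptor genes changed in both directions. Of 367 tested receptor genes, 189 were called higher and 95 lower, with a median difference of 0.26. By at least 2-fold 50 rose (13.6%) and 58 fell (15.8%), against 5.71% and 12.7% of all genes. Recentred, 74 and 46 did so, against 1252 and 1066 of all 13703 genes. The large rises included those of Fpr2, Il15ra and Cd40, and the large falls those of Cxcr4, Colec12 and Tgfbr1.

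Among the Toll-like receptors and their partners, 7 of 16 rose (43.8%) and 6 fell (37.5%), against 33.6% and 39.1% of all genes. Tlr3, the sensor of double-stranded RNA, rose by 1.72 (SE 0.10, adjusted p = 1.2e-09), and Tlr1, which pairs with TLR2 for bacterial lipopeptides, rose by 1.16 (SE 0.07). Tlr2 itself fell: its levels were 10.08, 9.91 and 9.62 in M0 replicates 1 to 3 and 8.32, 8.23 and 8.38 in M1, a difference of -1.56 (SE 0.09, adjusted p = 2.2e-09). Every M1 array lay below every M0 array. Tlr6, the other partner of TLR2, rose by 0.87 (SE 0.10) and Tlr8, a sensor of single-stranded RNA, fell by 1.01 (SE 0.10).

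Cytosolic nucleic acid and danger sensors mostly rose, 13 of 21 with 3 falling and a median of 0.61, and 9 rose by at least 2-fold. Nod1, which detects a peptidoglycan fragment, was at 7.13, 7.07 and 7.07 in M0 and 10.01, 9.93 and 10.04 in M1, a rise of 2.90 (SE 0.06, adjusted p = 3.4e-14). The arrays of each group lay within a narrow band, far from those of the other group. Zbp1, the sensor of Z-form nucleic acids, rose by 3.09 (SE 0.18), Ifih1, the MDA5 sensor of long double-stranded RNA, by 2.76 (SE 0.11), and Nlrc5, the activator of MHC class I genes, by 3.30 (SE 0.15). Pycard, the ASC adaptor of inflammasomes, fell by 0.87 (SE 0.10). Nlrc3 fell by 1.86 from the probe set used, to levels under the filter on all M1 arrays, while the other of its 2 probe sets was called higher.

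C-type lectin receptors, which bind sugars and lipids of microbes and dying cells, had 1 of 31 members higher by at least 2-fold and 8 lower. At any size 12 rose and 11 fell, and with arrays centred on all probe sets 9 rose and 12 fell. The member that rose was Clec4e, the Mincle receptor for mycobacterial cord factor, at 8.88, 8.97 and 9.01 in M0 and 12.67, 12.95 and 12.58 in M1 (difference 3.78, SE 0.11, adjusted p = 2.0e-12). Its M2 level was 7.40 ± 0.18 (SD, n = 3). Colec12, a collectin scavenger receptor, went from 8.48, 8.67 and 8.55 to 4.11, 4.51 and 4.63 (difference -4.15, SE 0.14, adjusted p = 4.7e-12), with 1 M1 array under the detection filter. Clec4b1 fell by 2.65 (SE 0.16) and Cd207, which encodes langerin, by 2.07 (SE 0.13), each with 1 M1 array under the filter.

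In the interleukin, interferon and CSF receptor list 15 of 38 rose and 12 fell, 3 and 4 by at least 2-fold (6 and 4 recentred); with arrays centred on all probe sets the counts were 13 and 13. Il15ra, whose product holds IL-15 at the cell surface for neighbouring lymphocytes, was at 6.27, 6.15 and 6.14 in M0 and 10.58, 10.77 and 10.79 in M1 (difference 4.52, SE 0.14, adjusted p = 2.7e-12). Il12rb1, the chain shared by the IL-12 and IL-23 receptors, was under the detection filter in M0 and at 7.68, 7.69 and 8.22 in M1, so its difference of 3.89 has no exact size. Il4ra, the IL-4 and IL-13 receptor chain, rose by 1.36, from 7.74 on each M0 array to 9.13, 9.07 and 9.07.

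Ifngr1, the ligand-binding chain of the interferon-gamma receptor, fell: levels were 10.63, 10.57 and 10.52 in M0 and 9.12, 9.05 and 9.06 in M1 (difference -1.50, SE 0.06, adjusted p = 1.6e-11). The groups did not overlap. Il6st, the gp130 chain used by IL-6, LIF and oncostatin M, fell by 1.86 (SE 0.21), with M1 replicate 2 at 7.65 above the other M1 arrays at 6.55 and 6.62. Il7r, the IL-7 receptor chain, fell by 1.36 (SE 0.12).

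In the TNF receptor superfamily 12 of 19 rose and 2 fell. Cd40, through which T cells activate macrophages, rose from 7.31, 7.30 and 7.13 to 11.71, 11.68 and 11.92 (difference 4.52, SE 0.08, adjusted p = 1.3e-14), and its M2 level was 8.76 ± 0.11 (SD, n = 3). Fas, a death receptor, rose by 2.91 (SE 0.15) and Tnfrsf14, the receptor of LIGHT, by 1.70 (SE 0.11). The members that fell were Tnfrsf21, death receptor 6, by 2.84 (SE 0.17) and Tnfrsf13b, the TACI receptor for BAFF and APRIL, by 1.94 (SE 0.08).

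Chemokine receptors had 8 of 15 higher and 3 lower, at a median mean level of 5.60, where small rises were common among all genes. Ccrl2, an atypical receptor that binds chemerin without signalling, rose from 8.04, 7.89 and 7.97 to 11.16, 11.06 and 11.13 (difference 3.15, SE 0.10, adjusted p = 2.2e-12). Cxcr4, the CXCL12 receptor that holds cells in bone marrow, was at 10.62, 10.62 and 10.55 in M0 and 5.38, 7.41 and 5.27 in M1 (difference -4.58, SE 0.38, adjusted p = 7.4e-08). M1 replicate 2 lay between the M0 arrays and the other M1 arrays, and without it the difference was -5.28. Cxcr3, which binds CXCL9 and CXCL10, fell by 2.29 (SE 0.14). Xcr1 and Ccr7, markers of dendritic cell subsets or states, were under the detection filter in M0 and at 6.92, 5.02 and 6.21 and at 5.39, 5.91 and 4.93 in M1.

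The other G protein coupled receptors formed the largest receptor list, with 15 of 105 higher and 18 lower by at least 2-fold (17 and 14 recentred); 61 rose and 25 fell at any size, at a median mean level of 5.92. Fpr2, a receptor for formyl peptides and serum amyloid A, was at 8.52, 7.88 and 8.26 in M0 and 13.37, 13.16 and 13.22 in M1 (difference 5.03, SE 0.21, adjusted p = 5.0e-11), and at 6.59 ± 0.32 in M2 (SD, n = 3). Hcar2, the receptor for niacin and the ketone body beta-hydroxybutyrate, went from 5.26, 5.20 and 5.20 to 10.22, 9.76 and 9.99, a difference of 4.77. All 3 M1 arrays were far above all M0 arrays for both genes. Gpr31b and Gpr18 rose by 4.64 (SE 0.26) and 4.34 (SE 0.26). Gpr34, a lysophosphatidylserine receptor prominent in microglia, went from 6.76, 6.69 and 6.23 to levels under the filter on all M1 arrays. Adgrl2, a latrophilin, fell by 3.55 with 1 of its 3 probe sets called the other way, and Gpr155, a lysosomal cholesterol sensor, fell by 3.50 (SE 0.20).

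Receptor tyrosine kinases and co-receptors had 22 of 38 higher and 5 lower but only 3 each way by at least 2-fold (8 and 3 recentred), and their median mean level of 5.41 lay in the range where small rises were common. Met, the HGF receptor, rose by 1.15 (SE 0.14) and Epha1 by 1.64 (SE 0.10), the latter in 1 of 3 probe sets. Nrp1, a co-receptor for VEGF and class 3 semaphorins, fell from 11.61, 11.58 and 11.65 to 8.67, 9.20 and 9.16 (difference -2.61, SE 0.13, adjusted p = 3.0e-10). The related Nrp2 rose by 0.89 (SE 0.11), and all 4 probe sets of each gene were called in the direction given. Insr, the insulin receptor, fell by 2.29 and Igf1r, the IGF-1 receptor, by 1.84, each with 1 probe set called higher.

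TGF-beta and BMP receptors had 4 of 14 higher and 7 lower, or 6 and 6 recentred. Tgfbr1, the signalling chain for TGF-beta, fell from 11.35, 11.14 and 11.20 to 8.55, 9.06 and 8.68 (difference -2.47, SE 0.11, adjusted p = 9.9e-11) in all 3 probe sets. Its partner Tgfbr2 fell by 1.00 and Bmpr2, a BMP receptor, by 0.98 (SE 0.07). Acvrl1, the ALK1 receptor for BMP9, rose by 1.40 (SE 0.11).

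Nuclear receptors had 1 of 33 higher (3.03%) and 5 lower (15.2%) by at least 2-fold, against 5.71% and 12.7% of all genes. Recentred the counts were 3 and 3. At any size 16 were higher and 8 lower. Pparg, the fatty acid sensing receptor linked with alternative activation, was at 7.91, 7.93 and 8.12 in M0 and 5.40, 5.00 and 5.14 in M1 (difference -2.80), and at 8.79 ± 0.17 in M2 (SD, n = 3). Its partner Rxra fell by 1.32 (SE 0.10). Nr1h3, the oxysterol receptor LXR-alpha, rose by 1.53 (SE 0.07) and Nr3c1, the glucocorticoid receptor, by 0.84 (SE 0.09) in all 6 probe sets.

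Fc, TREM, CD300 and paired immune receptors had 8 of 38 higher and 9 lower by at least 2-fold (13 and 8 recentred). Klrk1, which encodes the NKG2D receptor for stress-induced ligands, was under the filter in M0 at 4.24, 4.22 and 4.29 and stood at 10.90, 7.54 and 10.86 in M1. M1 replicate 2 was again the low array: the difference was 5.52 (SE 0.62, adjusted p = 1.8e-06), and 6.63 without it, neither an exact size. The paired receptors Pilra, which inhibits, and Pilrb1, which activates, rose together by 2.99 (SE 0.16) and 3.00 (SE 0.15). Fcgr4, an activating IgG receptor, rose by 2.63 (SE 0.16).

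The falls in that list included the inhibitory Cd300a, which binds phosphatidylserine, by 2.95 (SE 0.07), and Siglecf, a sialic acid binding lectin, by 3.33 (SE 0.30) with 2 M1 arrays under the filter. Trem2, a receptor for lipids and apoptotic cells, read 12.29, 12.29 and 12.26 in M0 and 8.64, 8.94 and 8.68 in M1 (difference -3.53, SE 0.07, adjusted p = 4.1e-14). That probe set carries the array maker's suffix for possible match to several transcripts, and the other, dimmer probe set of Trem2 differed by 0.19, which was not called.

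**Figure D3:**
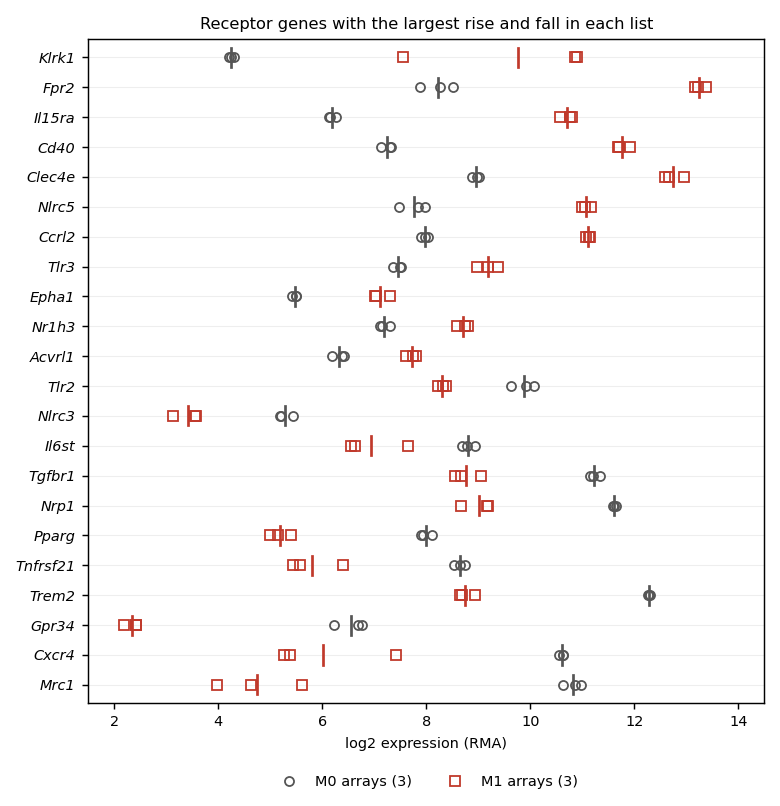
The log2 expression of 22 receptor genes, the largest rise and the largest fall in each receptor list, is shown for the 3 M0 arrays (grey circles) and the 3 M1 arrays (red squares), with a bar at each mean. The groups are separate for every gene shown, and for Klrk1 and Cxcr4 M1 replicate 2 (7.54 and 7.41) lies apart from the other M1 arrays.

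Transcription factor genes as a whole were close to the background, 194 of 579 higher and 230 lower (310 and 154 recentred), with a median of -0.00. The IRF, STAT and NF-kappa-B factors, which carry the signals of LPS and interferon, had 17 of 23 members higher, 11 of them by at least 2-fold, and none lower (23 higher and none lower recentred; 3 lower with arrays centred on all probe sets). The numbered zinc finger proteins, many of them repressors of transposable elements, had 45 of 261 higher and 140 lower, and 97 and 88 recentred. Recentred, 7619 of all 13703 genes were higher and 3505 lower. The recentred median was 0.02 for the zinc finger list and 0.32 for all genes.

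Within the first family Irf1, an interferon-induced factor, was at 10.08, 9.77 and 10.03 in M0 and 12.72, 12.82 and 12.74 in M1 (difference 2.80, SE 0.08, adjusted p = 1.1e-12). Irf7, which amplifies type I interferon, rose by 3.78 (SE 0.29), Stat2, which acts in the interferon-alpha response, by 2.77 (SE 0.11), and Nfkbie, an NF-kappa-B inhibitor, by 3.13 (SE 0.11). The IL-4 and IL-13 polarized cells had an Irf1 level of 11.06 ± 0.07 and an Irf7 level of 8.31 ± 0.53 (SD, n = 3).

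Leucine zipper factors had 12 of 39 higher and 5 lower by at least 2-fold. Batf2, a partner of IRF1, went from 5.86, 5.61 and 5.66 to 9.89, 9.73 and 9.69, a difference of 4.06, and Batf rose by 2.47 (SE 0.17). Dbp, a clock-controlled factor, was at 9.75, 9.61 and 9.50 in M0 and 5.28, 5.80 and 5.39 in M1, a difference of -4.13. Its relative Tef, which binds the same D-box sequence, fell by 1.69 (SE 0.07), while Nfil3, a repressor at that sequence, rose by 2.02 (SE 0.11). Cebpa, a myeloid lineage factor, fell by 2.84 (SE 0.14, adjusted p = 2.4e-10).

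KLF, EGR and SP factors had 8 of 24 higher and 10 lower (13 and 5 recentred), yet held large changes each way. Klf4 was at 6.82, 6.58 and 6.36 in M0 and 10.25, 10.53 and 10.60 in M1 (difference 3.87), and at 8.39 ± 0.11 in M2. Egr2 was at 8.39, 8.25 and 8.55 in M0, under the filter on all M1 arrays, and at 11.08 ± 0.07 in M2 (SD, n = 3). Klf6 rose by 1.63 (SE 0.06) in all 5 probe sets, and Klf9, a glucocorticoid-induced factor, fell by 2.44 (SE 0.14) in 6 of 7 with 1 called higher.

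Basic helix-loop-helix factors had 2 of 48 higher (4.17%) and 8 lower (16.7%) by at least 2-fold, against 5.71% and 12.7% of all genes. At any size 16 rose and 20 fell, and 25 and 16 recentred. The hypoxia-inducible factors moved apart. Hif1a rose from 10.51, 10.55 and 10.51 to 12.03, 11.78 and 11.84 (difference 1.36), and Epas1, which encodes HIF-2-alpha, fell from 7.49, 6.61 and 8.11 to 4.33, 4.52 and 4.38 (difference -2.99), with 2 M1 arrays under the filter. The same held for the MAX partners that oppose MYC: Mxd1 rose by 3.07 (SE 0.08) and Mxd4 fell by 2.91 (SE 0.06), with all probe sets of each called in that direction. Ahr, the receptor for aryl hydrocarbons, fell by 2.49 (SE 0.10) and Bhlhe40, a clock and cytokine regulator, by 1.84 (SE 0.18).

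Among forkhead, SOX, SMAD, NFAT, MEF2 and related factors 1 of 80 rose by at least 2-fold and 10 fell (29 and 27 at any size, 21 and 29 with arrays centred on all probe sets), and among ETS, RUNX, GATA and lineage factors 2 of 48 rose and 6 fell (4 and 4 recentred). The share lower by at least 2-fold, 12.5% in either list, was near the 12.7% of all genes. Mef2c went from 9.28, 9.38 and 9.24 to 5.02, 5.63 and 5.19, a difference of -4.02, and Mef2a fell by 2.25 (SE 0.07) in all 6 probe sets. Rbl1, the p107 pocket protein that restrains E2F factors, rose by 2.02 (SE 0.13), and the repressor E2f7 fell by 2.50, or by 3.15 without M0 replicate 1, which read 4.45 against 6.68 and 6.12; all M1 arrays were under the filter, so neither is an exact size. Id3, an inhibitor of helix-loop-helix factors, fell by 3.90 (SE 0.24), Tfec by 2.30 (SE 0.13) and Fli1 by 1.86 (SE 0.13), whereas Ets2 rose by 1.51 (SE 0.12) and Spic, known from iron-handling macrophages, by 1.20 (SE 0.19).

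Homeobox factors had 38 of 57 members higher and 4 lower, but only 2 and 1 by at least 2-fold, at a median mean level of 5.32, where small rises were common among all genes. Pou3f1 rose by 1.60 (SE 0.10) and Cux1 fell by 1.13 (SE 0.07). Of the numbered zinc finger proteins, 6 rose and 34 fell by at least 2-fold (11 and 12 recentred). As deposited, the share that fell by this size was near the 12.7% of all genes. Zfp800 rose by 2.26 (SE 0.08) in all 7 probe sets and Zfp36, which is listed by its name but encodes the RNA-destabilizing protein tristetraprolin, by 2.02 (SE 0.07). Zfp810 fell by 2.17 (SE 0.08).

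The promoters of the changed genes were searched for 6 short motifs in RefSeq windows of GRCm38.p6, from 250 bases before the start to 50 after it, on both strands; 11053 tested genes had a window, 2173 of them several. The interferon response element GAAANNGAA was found for 8.36% of all tested genes with a window, 17.0% of those higher by at least 2-fold and 26.9% of those higher by at least 8-fold, against 7.57% and 8.82% of those lower by the same amounts. Over all 32851 windows of the table the share was 8.56%. That share is per window and covers 27025 genes, whereas the other shares count genes with a match in any window. Window shares and gene shares are thus not directly comparable. The AP-1 site TGANTCA was found for 6.79% of tested genes, 9.28% and 23.1% of those higher, and 7.22% and 11.8% of those lower, and for 7.81% of all windows. The gamma-activated site TTCNNNGAA had shares of 8.14% in tested genes, 9.92% and 11.5% in both higher groups and 8.42% and 7.84% in both lower groups. The kappa-B pattern GGGNNTTCC had 8.53%, then 9.28% and 7.69% higher, and 8.35% and 8.82% lower. Only these exact letters at this exact spacing were searched, so longer kappa-B spellings such as gggaaattcc were not counted. The shares thus do not measure kappa-B sites as a whole. The CHR element TTTGAA, known from cell cycle genes, was found for 14.3% of tested genes. It was found for 14.6% and 17.3% of those higher, and 17.8% and 29.4% of those lower. Of all windows, 17.9% held it. The E2F site TTTCCCGC was found for 2.15% of tested genes, 1.12% and 1.92% of those higher, and 3.54% and 3.92% of those lower. Of all windows, 1.07% held it. The 8-fold groups held 104 higher and 102 lower genes, and a match is only a run of letters.

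The 250 bases before the start, 5′ to 3′ on the gene's strand with the motif matches in capitals, are printed for 5 genes that rose and 1 that fell, picked after their matches were seen to show where the interferon element lies. Socs1 (chr16:10785537-10785786, minus strand) holds 2 overlapping elements that begin 83 and 77 bases before the start. Cxcl10 (chr5:92348890-92349139, minus) holds the element 213, a match to the kappa-B pattern GGGNNTTCC 103 and an AP-1 match 74 bases before it. Other spellings of a kappa-B site were not marked, among them gggaaattcc in the Cxcl10 window. Cd274 (chr19:29367188-29367437, plus), Serpinb9 (chr13:33004291-33004540, plus) and Klrk1 (chr6:129623865-129624114, minus) hold 1 element each, 76, 45 and 48 bases before the start. Plxnc1 (chr10:94944846-94945095, minus), which fell, holds 1 element 118 bases before its start.
Socs1: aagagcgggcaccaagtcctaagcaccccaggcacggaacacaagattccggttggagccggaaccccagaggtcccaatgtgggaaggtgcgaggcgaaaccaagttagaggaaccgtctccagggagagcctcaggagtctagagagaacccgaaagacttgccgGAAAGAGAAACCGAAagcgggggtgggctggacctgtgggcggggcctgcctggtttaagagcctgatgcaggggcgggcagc
Cxcl10: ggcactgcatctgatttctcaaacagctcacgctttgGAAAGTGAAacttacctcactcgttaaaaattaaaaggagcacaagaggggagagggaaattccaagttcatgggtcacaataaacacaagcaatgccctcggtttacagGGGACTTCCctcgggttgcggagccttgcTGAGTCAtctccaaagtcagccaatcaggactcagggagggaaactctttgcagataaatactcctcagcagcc
Cd274: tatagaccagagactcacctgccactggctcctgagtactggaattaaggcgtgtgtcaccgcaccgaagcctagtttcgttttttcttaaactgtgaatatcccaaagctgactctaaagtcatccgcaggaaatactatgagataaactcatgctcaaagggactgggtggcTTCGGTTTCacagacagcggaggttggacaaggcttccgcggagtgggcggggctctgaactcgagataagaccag
Serpinb9: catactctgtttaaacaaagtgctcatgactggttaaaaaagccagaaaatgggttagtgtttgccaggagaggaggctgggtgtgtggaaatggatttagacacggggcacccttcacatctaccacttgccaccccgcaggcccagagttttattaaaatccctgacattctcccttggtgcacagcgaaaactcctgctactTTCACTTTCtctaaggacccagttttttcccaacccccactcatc
Klrk1: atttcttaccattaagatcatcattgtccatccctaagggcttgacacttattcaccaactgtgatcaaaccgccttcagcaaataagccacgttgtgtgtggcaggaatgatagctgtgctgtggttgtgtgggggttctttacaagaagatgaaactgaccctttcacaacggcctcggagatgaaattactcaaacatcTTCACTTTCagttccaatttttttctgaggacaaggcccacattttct
Plxnc1: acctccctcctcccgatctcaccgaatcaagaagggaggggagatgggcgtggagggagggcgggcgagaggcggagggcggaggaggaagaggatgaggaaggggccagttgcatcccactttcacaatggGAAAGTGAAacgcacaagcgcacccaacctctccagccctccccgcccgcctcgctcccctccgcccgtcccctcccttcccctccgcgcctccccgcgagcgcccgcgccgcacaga

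Secreted protein genes rose more often than they fell, 214 of 438 higher (48.9%) and 94 lower (21.5%). The median mean level of the class was 5.70. Of all genes with a mean level from 5 to 6, 43.2% were called higher and 23.6% lower. By at least 2-fold 62 rose (14.2%) and 45 fell (10.3%), against 5.71% and 12.7% of all genes. Interleukins, interferons, CSFs and TNF ligands had 33 of 42 higher and 2 lower, and none lower recentred; 18 rose by at least 2-fold and none fell by as much. Il1rn, the antagonist of the IL-1 receptor, was at 7.36, 8.07 and 7.90 in M0 and 12.61, 12.90 and 12.93 in M1 (difference 5.04, SE 0.16, adjusted p = 3.9e-12). Il12b, the p40 chain of IL-12 and IL-23, rose by 5.57 (SE 0.10). Chemokines had 12 of 31 higher and 6 lower by at least 2-fold, and the falls included Ccl6 by 2.29 (SE 0.26) and Pf4, or CXCL4, by 1.74 (SE 0.28), both highest in M1 on replicate 2.

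Of 90 tested growth factors and morphogens, 7 rose and 9 fell by at least 2-fold (10 and 7 recentred), while 45 rose and 17 fell at any size, at a median mean level of 5.60. Gas6, the ligand of AXL and MERTK that bridges to apoptotic cells, went from 10.80, 11.03 and 10.82 to 6.57, 7.12 and 6.61, a difference of -4.12. Igf1 fell from 12.08, 12.39 and 12.08 to 9.16, 9.52 and 9.02 (difference -2.95, SE 0.13, adjusted p = 8.4e-11) in all 4 probe sets, and its M2 level was 12.79 ± 0.14 (SD, n = 3). Pdgfc and Vegfb fell by 2.82 (SE 0.13) and 2.04 (SE 0.10). In the list of growth factor binding proteins and antagonists 8 of 21 rose (38.1%) and 2 fell (9.52%). Of all genes 33.6% rose and 39.1% fell. The median mean level of the list was 5.28, where small rises were common. Igfbp4, an IGF binding protein, went from 10.31, 10.71 and 10.43 to 5.61, 5.73 and 5.49, a difference of -4.87.

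The growth factor list also held rises. Edn1, the vasoconstrictor endothelin-1, rose by 2.63 (SE 0.21), and Inhba, the activin A chain, by 1.51 (SE 0.11). Adm, the vasodilator adrenomedullin, was at 4.88, 4.52 and 4.53 in M0 and 6.51, 8.78 and 6.62 in M1, so replicate 2 was the high array. The difference was 2.66, and 1.92 without that replicate.

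Secreted proteases and clotting factors had 4 of 65 higher (6.15%) and 11 lower (16.9%) by at least 2-fold (26 and 22 at any size, 23 and 23 with arrays centred on all probe sets), and protease inhibitors had 8 of 44 higher (18.2%) and 3 lower (6.82%) by that size, against 5.71% and 12.7% of all genes. Cst7, the cathepsin inhibitor cystatin F, was at 5.39, 5.24 and 5.43 in M0 and 11.53, 11.78 and 11.61 in M1, a difference of 6.29. Serpinb9, an inhibitor of granzyme B that acts inside the cell, was at 7.35, 7.41 and 7.63 in M0 and 11.60, 11.69 and 11.87 in M1 (difference 4.26, SE 0.10, adjusted p = 1.2e-13). No M1 array of either gene came near the M0 arrays. Serpinb6a fell by 1.72 (SE 0.07), and Timp2, an inhibitor of matrix metalloproteinases, fell by 1.60 in 5 of 6 probe sets with 1 called higher.

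Among the proteases Mmp13, a collagenase, rose by 2.74 (SE 0.24) and the membrane-bound Mmp14 by 2.27 (SE 0.19), while Mmp8, the other collagenase named here, fell by 3.27 (SE 0.17). Ctsc, which activates granule proteases, rose by 1.94 (SE 0.12). Clotting factor X (F10) rose by 1.63 (SE 0.16) and F13a1, the A chain of factor XIII, fell by 1.82 (SE 0.18), with 2 M1 arrays under the filter. Adam19, a shedding protease, fell by 2.62 (SE 0.10).

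Complement genes had 8 of 21 higher (38.1%) and 5 lower (23.8%), and 6 and 6 with arrays centred on all probe sets. Of all genes 33.6% were called higher and 39.1% lower. Cfb, factor B of the alternative pathway, was at 5.82, 5.57 and 5.77 in M0 and 11.55, 11.84 and 11.46 in M1, a difference of 5.90. The groups were far apart. Serping1, the C1 inhibitor, rose by 1.74 (SE 0.39, adjusted p = 0.0011) with 1 M0 array under the filter, Cd59a, a regulator on the cell surface, fell by 1.37 (SE 0.17), and C1qbp, listed by its name though it is mainly a mitochondrial protein, fell by 2.13 (SE 0.07).

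Matrix proteins had 5 of 66 higher and 4 lower by at least 2-fold. Vcan, the proteoglycan versican, rose by 1.91 (SE 0.20) in 5 of 8 probe sets with 1 M0 array under the filter, and Tgm2, the crosslinking transglutaminase, by 1.81 (SE 0.15) in all 6. Vwf, better known from endothelium and platelets, fell by 2.34 (SE 0.19), and Mfge8, a bridge to apoptotic cells, by 1.74 (SE 0.14). Host defence and carrier proteins had 5 of 59 higher (8.47%) and 8 lower (13.6%) by at least 2-fold, against 5.71% and 12.7% of all genes. Recentred the counts were 8 and 7. At any size 22 rose and 21 fell, and 19 and 21 with arrays centred on all probe sets. Cp, the copper ferroxidase ceruloplasmin, rose by 4.43 (SE 0.15) in all 8 probe sets, Saa3, a serum amyloid A, by 4.09 (SE 0.23) and Chil1, a chitinase-like protein, by 3.33 (SE 0.22). Rnase4 fell by 3.98 (SE 0.16) and S100a4, a calcium-binding protein, by 3.06 (SE 0.17).

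**Figure D4:**
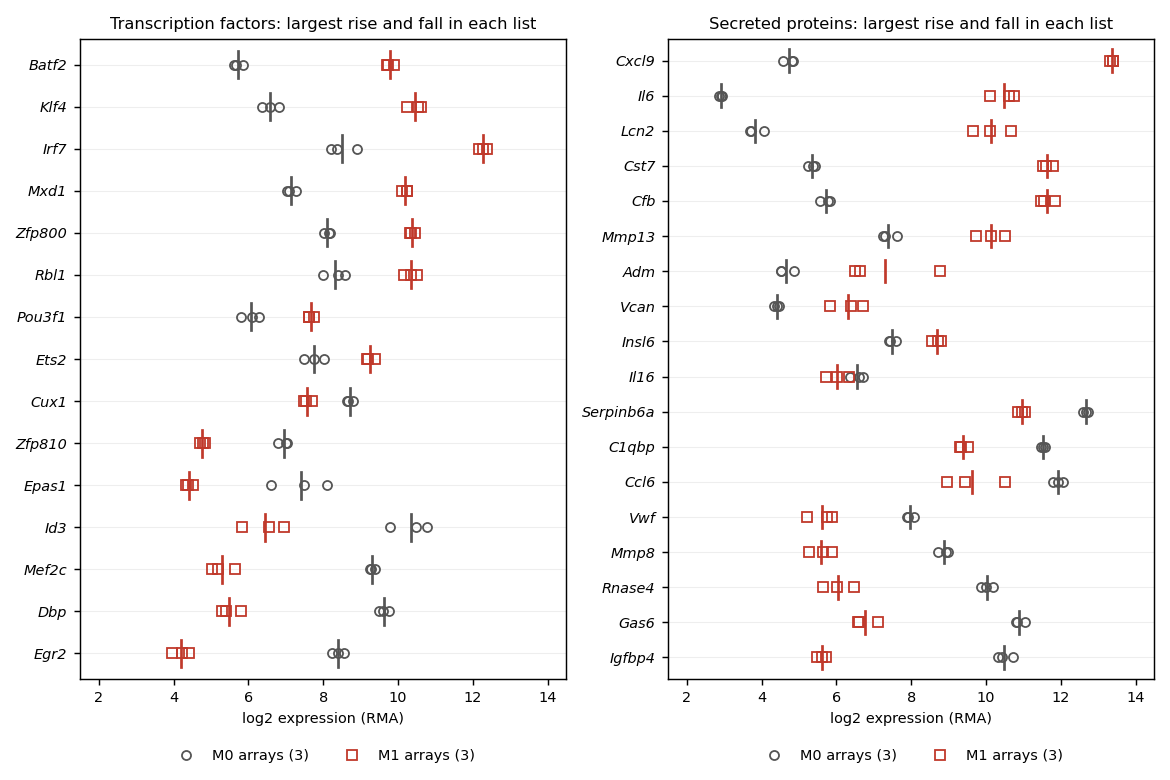
The left panel shows 15 transcription factor genes and the right panel 18 secreted protein genes, the largest rise and fall in each list, as log2 expression on the 3 M0 arrays (grey circles) and 3 M1 arrays (red squares) with a bar at each mean. The M1 array of Adm at 8.78 and the M0 array of Epas1 at 8.11 stand apart from their replicates. Il16 shows the smallest difference drawn (-0.54), which was -0.22 and not called recentred. Of the 4 Il16 probe sets, 1 was called higher and 2 lower.

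Of 505 tested transporter genes, 31 rose (6.14%) and 70 fell (13.9%) by at least 2-fold, shares near the 5.71% and 12.7% of all genes, and 48 and 48 did so recentred. At any size 183 rose and 164 fell (157 and 174 with arrays centred on all probe sets).

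Amino acid transporters had 5 of 49 higher and 8 lower by at least 2-fold (7 and 3 recentred). Slc7a2, the CAT2 carrier of arginine, was at 6.58, 6.10 and 6.24 in M0 and 10.86, 11.15 and 10.49 in M1 (difference 4.53, SE 0.16, adjusted p = 7.0e-12), and at 10.13 ± 0.18 in M2 (SD, n = 3). Both polarized groups thus lay above M0, and they share the M0 arrays as control. Slc6a19, a sodium-coupled carrier of neutral amino acids known from gut and kidney, was under the filter in M0 and at 8.93, 9.22 and 9.02 in M1. Slc15a3, an endolysosomal peptide carrier, rose by 1.76 (SE 0.10). The glutamine carriers Slc38a1 and Slc38a2 fell by 1.41 (SE 0.09) and 1.42 (SE 0.10), the second with 1 of 3 probe sets called higher, and Slc43a2, a leucine carrier, fell by 1.73 (SE 0.06).

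Among sugar, monocarboxylate and nucleoside carriers 13 of 40 rose and 13 fell (22 and 9 recentred). Slc2a6, a glucose transporter family member, went from 6.22, 6.23 and 6.32 to 10.21, 10.37 and 10.34, a difference of 4.05, and Slc2a1, the GLUT1 glucose transporter, rose by 2.79 (SE 0.10). Slc37a2, an endoplasmic reticulum sugar phosphate carrier, fell by 2.57 (SE 0.14), Slc5a3, which imports myo-inositol, by 2.32 (SE 0.11), and Slc29a1, the nucleoside transporter ENT1, by 1.86 (SE 0.11).

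Metal ion transporters had 4 of 42 higher and 10 lower by at least 2-fold (11 and 15 at any size, 25 and 14 recentred). The copper importer Slc31a1, CTR1, was at 9.23, 9.21 and 9.11 in M0 and 11.22, 11.23 and 11.16 in M1, a difference of 2.02, and the related Slc31a2 rose by 2.36 (SE 0.06). Slc11a1, the NRAMP1 phagosomal metal pump, rose by 1.09 (SE 0.06) and Slc11a2, the iron importer DMT1, by 1.29 (SE 0.08). The zinc importer Slc39a8, ZIP8, went from 7.76, 7.96 and 7.79 to levels under the filter on all M1 arrays, and Slc39a10, of the same family, fell by 3.07 (SE 0.06, adjusted p = 2.4e-14).

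Slc40a1, the iron exporter ferroportin, was at 12.12, 11.91 and 12.16 in M0 and 8.19, 9.82 and 8.31 in M1, with replicate 2 the highest M1 array (difference -3.29, SE 0.30, adjusted p = 2.2e-07). Its M2 level was 8.47 ± 0.16 (SD, n = 3). Flvcr1, a choline carrier also described as a haem exporter, fell by 1.42 (SE 0.15).

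Proton, sodium, chloride and phosphate carriers had no member higher by at least 2-fold and 9 lower, and 19 of 38 higher and 10 lower at any size. Xpr1, the phosphate exporter, fell by 2.04 (SE 0.11) in 6 of 7 probe sets, and Slc26a11, an anion carrier, by 2.43 (SE 0.10). Mitochondrial carriers had 13 of 42 higher and 19 lower (22 and 14 recentred). The paralogous aspartate-glutamate carriers moved apart: Slc25a12 rose by 1.93 (SE 0.09) and Slc25a13, citrin, fell by 1.43 (SE 0.08). Slc25a22, a glutamate carrier, rose by 1.64 (SE 0.10), and Slc25a15, the ornithine carrier, fell by 2.34 in 1 of 2 probe sets.

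Vitamin, drug and related carriers had 2 of 74 higher and 6 lower by at least 2-fold (25 and 27 at any size, 44 and 19 recentred). Slco3a1, an organic anion transporter, was at 6.14 ± 0.14 in M0 (SD, n = 3) and at 11.40, 11.29 and 11.39 in M1, a difference of 5.22. The next largest rise in the list was that of Slc23a2, a vitamin C importer, at 1.24 (SE 0.13). Slc46a3, a lysosomal carrier, went from 9.85, 9.72 and 9.64 to 4.85, 6.19 and 5.40 (difference -4.26, SE 0.22), and Ank, which exports pyrophosphate and ATP, fell by 3.22 (SE 0.10).

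ABC transporters had 14 of 39 higher and 17 lower (19 and 12 recentred). Tap1 and Tap2, which load peptides onto MHC class I, rose by 3.19 (SE 0.11) and 2.93 (SE 0.09). Abcb1b, a P-glycoprotein drug pump, fell by 3.57 (SE 0.11) in 1 of 2 probe sets with 1 M1 array under the filter, and Abcd2, which carries very long chain fatty acids into peroxisomes, by 2.89 (SE 0.13). Ion channels had 7 of 137 higher (5.11%) and 10 lower (7.3%) by at least 2-fold, against 5.71% and 12.7% of all genes. Recentred the counts were 13 and 6. Lrrc8c, a subunit of the volume-regulated anion channel, rose by 2.48 (SE 0.19) and Clcn7, the lysosomal chloride exchanger, by 1.57 (SE 0.07), whereas Mcoln3, an endolysosomal cation channel, went from 8.24, 7.76 and 7.86 to levels under the filter on all M1 arrays.

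Membrane ATPases had 9 of 44 higher and 18 lower (24 and 12 recentred). Atp6v0d2, a proton pump subunit known from osteoclasts and macrophages, was at 12.14, 11.84 and 12.12 in M0 and 8.21, 7.84 and 8.19 in M1, a difference of -3.95. Atp13a3, a polyamine transporter, fell by 3.15 (SE 0.07) in all 3 probe sets, and Atp10a, a lipid flippase, rose by 1.96 (SE 0.16) in all 4.

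Cell surface genes, 171 of 328 higher and 83 lower, had 52 (15.9%) and 49 (14.9%) changed by at least 2-fold, against 5.71% and 12.7% of all genes. Costimulatory, checkpoint and SLAM molecules had the highest median of the surface lists, 0.94, with 17 of 35 higher and 5 lower by at least 2-fold. Cd86, which engages CD28 on T cells, rose from 6.64, 6.41 and 6.07 to 11.25, 10.90 and 11.32 (difference 4.78, SE 0.15, adjusted p = 3.6e-12), and Cd274, the PD-L1 checkpoint ligand, from 9.38, 9.17 and 9.39 to 13.15, 13.18 and 13.16 (difference 3.85). The M2 levels were 8.53 ± 0.19 and 10.96 ± 0.06 (SD, n = 3). The fall was largest, next to Cd28, for Cd24a, at -3.76 with M1 under the filter, and Vsir, the checkpoint protein VISTA, fell by 2.49 (SE 0.07).

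Other members of that list varied within M1. Timd4, a phosphatidylserine receptor, was under the filter in M0 and at 9.47, 6.97 and 9.07 in M1 (difference 4.39, and 5.16 without replicate 2, neither an exact size). Slamf8 was at 4.51, 4.39 and 4.78 in M0 and 7.66, 10.33 and 8.21 in M1 (difference 4.18, and 3.38 without replicate 2). Replicate 2 was thus the lowest M1 array for one gene and the highest for the other. Among CD-numbered surface molecules as a whole 8 of 72 rose and 18 fell by at least 2-fold (33 and 27 at any size, 29 and 29 with arrays centred on all probe sets). Cd69, an early activation marker of leukocytes, was at 4.59, 4.76 and 4.50 in M0 and 11.42, 10.78 and 11.71 in M1, a difference of 6.69.

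MHC and related molecules had 17 of 27 higher and 4 lower. H2-Q5, a class Ib gene with near-identical relatives whose probe sets may share signal, rose by 3.89 (SE 0.14), and H2-Oa, which restrains class II peptide loading, from 4.94, 5.24 and 4.59 to 7.51, 8.26 and 7.66 (difference 2.89, SE 0.18). Fcgrt, the receptor that recycles IgG, fell by 2.32 (SE 0.08), and Mr1, which presents vitamin B metabolites, by 0.90 (SE 0.18). Ciita, the master activator of class II genes, read 6.31, 5.93 and 6.22 in M0 and 5.01, 5.69 and 5.92 in M1 (difference -0.61, SE 0.23, adjusted p = 0.026). That adjusted p was 0.083, 0.066 and 0.15 without M0 replicate 1, M0 replicate 3 and M1 replicate 1, and recentred the difference was -0.29 and not called.

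Scavenger and efferocytosis receptors had 8 of 37 higher and 13 lower by at least 2-fold, or 11 and 10 recentred (19 and 15 at any size, 14 and 15 with arrays centred on all probe sets). Marco, which binds unopsonized bacteria and particles, was at 6.47, 6.30 and 6.82 in M0 and 12.35, 12.90 and 12.24 in M1, a difference of 5.97. Cd93 fell from 11.59, 11.76 and 11.72 to 8.54, 7.51 and 8.20 (difference -3.61, SE 0.18, adjusted p = 3.9e-10) in all 5 probe sets. Cd5l, a protein secreted by macrophages that limits apoptosis, fell by 2.34 (SE 0.16).

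Adhesion molecules had 3 of 62 higher (4.84%) and 8 lower (12.9%) by at least 2-fold, and 8 and 8 recentred. The deposited shares were near the 5.71% and 12.7% of all genes. Icam1, the ligand of leukocyte integrins, rose by 2.82 (SE 0.07, adjusted p = 5.3e-13) and Itga5, the fibronectin receptor chain, by 1.80 (SE 0.10) in all 4 probe sets. Itgb5, the integrin chain that takes part in uptake of apoptotic cells, fell from 11.36, 11.22 and 11.15 to 7.54, 7.55 and 7.53, a difference of -3.71, and Itga6, a laminin receptor chain, fell by 3.79 (SE 0.12). Cadm1 fell by 2.65 (SE 0.20) in all 4 probe sets.

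Tetraspanins and MS4A proteins had 6 of 36 higher and 4 lower by at least 2-fold. Ms4a4c was at 8.63, 7.86 and 8.19 in M0 and 13.10, 13.08 and 13.10 in M1 (difference 4.87, SE 0.19, adjusted p = 1.9e-11). Tspan3, a tetraspanin, rose by 2.82 (SE 0.06), and the tetraspanins Cd9, which restrains cell fusion, and Cd81 fell by 2.86 (SE 0.11) and 1.28. LY6, GPI-linked and ectoenzyme proteins had 9 of 42 higher and 5 lower by at least 2-fold. Bst1, the CD157 ectoenzyme, rose by 4.40 (SE 0.19), Ly6i by 2.97 (SE 0.19) and Pdpn, podoplanin, by 2.68 (SE 0.21), while Entpd1, the CD39 enzyme that degrades extracellular ATP, fell by 1.90 (SE 0.12) in all 3 probe sets.

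Guidance receptors had 3 of 53 higher (5.66%) and 5 lower (9.43%) by at least 2-fold, against 5.71% and 12.7% of all genes. Recentred the counts were 5 and 4. The plexins named here all fell. Plxnc1, the receptor of semaphorin 7A, was at 10.01, 10.08 and 10.01 in M0 and 4.90, 6.11 and 5.55 in M1, a difference of -4.51. Plxna2 fell by 2.82 (SE 0.10) in all 4 probe sets, with 2 M1 arrays under the filter, and Plxnd1 by 1.94 (SE 0.20). Cd72, a receptor of semaphorin 4D, rose by 2.42 (SE 0.17), and Sema4a by 1.56.

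**Figure D5:**
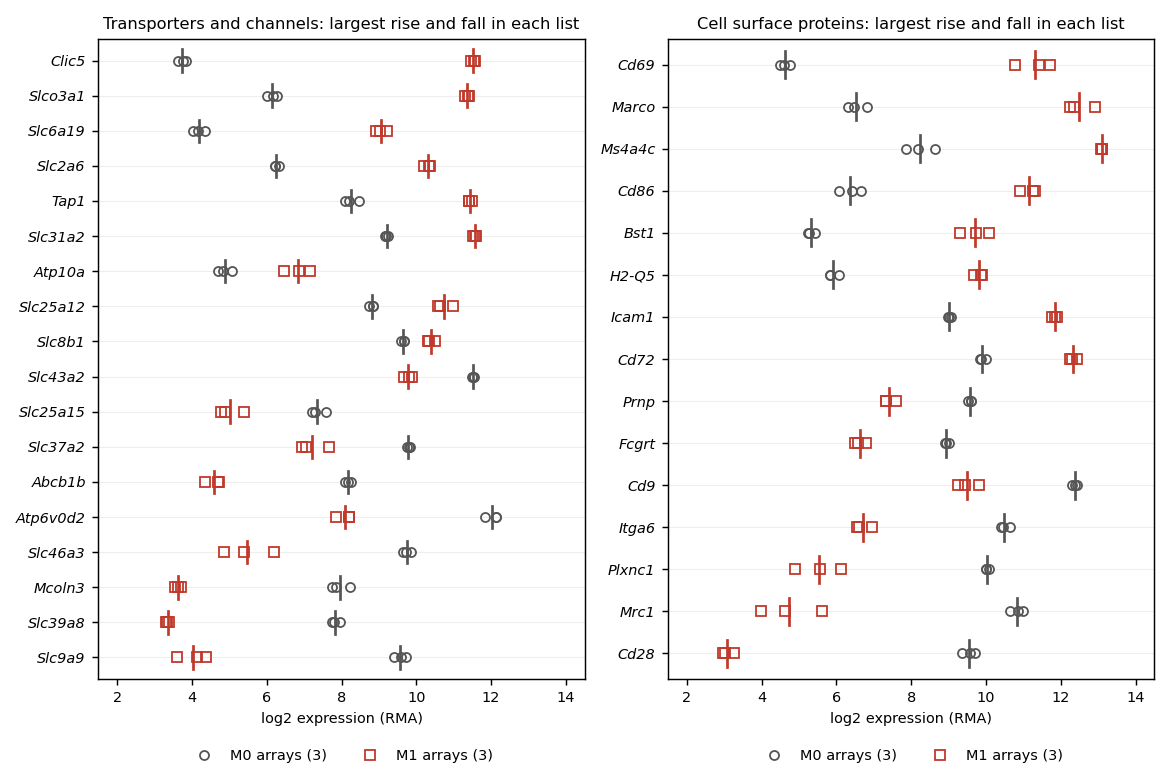
The left panel shows 18 transporter genes and the right panel 15 cell surface genes, the largest rise and fall in each list, as log2 expression on the 3 M0 arrays (grey circles) and 3 M1 arrays (red squares) with a bar at each mean. The groups are separate for each gene shown.

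Of 388 tested signalling regulators 73 rose (18.8%) and 53 fell (13.7%) by at least 2-fold, against 5.71% and 12.7% of all genes. Socs1, which blocks interferon receptor kinases, was at 5.22, 5.37 and 5.35 in M0 and 10.19, 10.07 and 10.30 in M1 (difference 4.88), and at 8.26 ± 0.10 in M2 (SD, n = 3). TRAF, IRAK and ubiquitin-editing regulators had 17 of 51 higher and 7 lower by at least 2-fold. Traf1 rose by 3.67 (SE 0.11), and the brakes on Toll-like receptor signals Tnfaip3, or A20, and Irak3 rose 5.13-fold and 4.01-fold. Peli2, a ubiquitin ligase that acts with IRAK kinases, went from 8.29, 8.10 and 7.87 to 3.72, 4.50 and 4.04, with 2 M1 arrays under the filter and all 3 probe sets called lower.

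Protein phosphatases had 7 of 50 higher and 7 lower by at least 2-fold (11 and 2 recentred), phosphodiesterases and adenylate cyclases 3 and 7 of 26 (4 and 3 recentred), eicosanoid and phospholipid enzymes 4 and 11 of 54, and RGS, SOCS, SPRED and SPRY regulators 6 and 4 of 32. Dusp1, the phosphatase that ends p38 signalling, rose by 3.01 (SE 0.13). The cyclic AMP phosphodiesterase Pde4b rose by 2.41 (SE 0.11) in 4 of 6 probe sets, and Pde3b fell by 3.72 (SE 0.24) with 2 M1 arrays under the filter. The adenylate cyclase Adcy9 fell by 2.65 (SE 0.17), with no M1 array under the filter. Pla2g4a, which releases arachidonic acid, rose by 3.16 (SE 0.17) and Ptges, the prostaglandin E synthase, by 3.04 (SE 0.21), while Hpgds, the haematopoietic prostaglandin D synthase, fell by 1.91 (SE 0.12). The regulators of G protein signalling Rgs2 and Rgs10 fell by 3.44 (SE 0.17) and 3.49 (SE 0.07).

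TRIM, PARP and interferon-induced GTPase families had 31 of 80 higher and 6 lower by at least 2-fold; Trim59 fell by 3.09 (SE 0.31), with 2 M1 arrays under the filter. Chromatin and DNA-modifying enzymes had 22 of 95 higher and 47 lower (45 and 26 recentred). Their recentred median was 0.14, against 0.32 for all genes. The bromodomain gene Brd2 rose by 1.78 (SE 0.10), and the DNA methyltransferase Dnmt3a fell by 1.92 (SE 0.13) in all 5 probe sets. Uhrf1, which maintains DNA methylation in dividing cells, fell by 2.31 (SE 0.36), with M0 replicate 1 at 5.74 below the other M0 arrays at 7.65 and 7.04 and 2 M1 arrays under the filter.

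Ligands and their receptors were set side by side, as differences on the log2 scale. Il15 and Il15ra both rose, by 2.56 and 4.52, and so did Il12b and Il12rb1. Tnf rose by 3.59 with its receptors Tnfrsf1a by 0.87 and Tnfrsf1b by 1.21, and Vegfa by 1.25 with Kdr by 1.18 and Flt1 by 0.43. Igf1 and Igf1r both fell, by 2.95 and 1.84, as did Tgfb1 by 0.90 with Tgfbr1 and Tgfbr2. In some pairs a receptor chain fell while the ligand rose. Il6 rose by 7.59, no exact size since M0 was under the filter, while Il6ra fell by 0.95 and Il6st by 1.86, and Cxcl9 and Cxcl10 rose by 8.63 and 6.46 while Cxcr3 fell by 2.29. Csf1 rose by 0.92 and Csf1r fell by 0.74. Lif rose by 0.49 on arrays that overlapped, and Lifr fell by 1.82 to levels under the filter on all M1 arrays, so without an exact size. Il1b rose by 5.27 while of its receptor chains Il1rap fell by 0.95, the decoy Il1r2 rose by 0.61 with 2 M0 arrays under the filter, and Il1r1 differed by 0.25 on overlapping arrays, which was not called, though it was called higher recentred (0.58) and without M0 replicate 3 (0.33) or M1 replicate 1 (0.36). The reverse held for Gas6, which fell by 4.12 while its receptors Mertk and Axl rose by 0.74 and 0.54. The arrays of Axl overlapped, and its adjusted p of 0.036 became 0.13, 0.081, 0.13 and 0.13 without M0 replicate 2, M0 replicate 3, M1 replicate 1 and M1 replicate 3. Cxcl12 differed by -0.37, which was not called, beside the fall of Cxcr4.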

How the data were processed

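Total RNA was amplified to biotin-labelled cRNA from an oligo(dT) primer, per the labels' protocols, and hybridised to 1-colour arrays. The authors deposited log2 expression made with RMA (background correction, quantile normalization and summary per probe set), per the submitters' processing notes, which give no version. No scanner signals were used here, so RMA's settings could not be varied.

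Of 45101 probe sets, 64 were controls, 34945 named 1 gene in the platform annotation, 932 several and 9160 none; symbols were updated by Entrez ID for 34741. For each of 18193 genes the probe set brightest on average across the 15 arrays was used. Genes above their array's 40th percentile (4.34 to 4.52) on at least 3 arrays were tested, 13703 in all; under that level a value is called under the filter. Group means of all 5 groups were fitted with limma 3.58.1 (lmFit and eBayes, R 4.3.3) and p-values adjusted by the Benjamini-Hochberg method; the script was tested on simulated data.

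The members and the 52 gene lists were chosen with earlier results of these data known. Genes are named by rule: per list up to 4 with the largest rises and 4 with the largest falls among called genes whose arrays do not overlap, the 25 largest each way, textbook ligand-receptor pairs, and cell type markers. No more precision than 3 arrays per group allow is available.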

Additional observations from a re-analysis of the deposited data

How the results depend on the processing

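Results were recomputed under 18 alternatives. Centring arrays on the median of the tested genes, chosen after seeing the data, gave 7619 genes higher and 3505 lower, 1252 and 1066 of them by at least 2-fold, and a 60th percentile filter left 2962 higher. The other counts over all genes stayed within 1.5 times, but repeated quantile normalization (5183 higher, 4490 lower) and no filter on low values (6287 and 5407) turned the balance of all calls; at 2-fold these gave 919 and 1391, and 804 and 1743. Leaving out 1 array at a time gave 4146 to 4738 genes higher and 5066 to 5573 lower, 779 to 796 and 1654 to 1864 by at least 2-fold. Replicate numbers were not taken as pairing: deviations of arrays with the same number correlated at 0.055, 0.149 and 0.263, though every array correlated best with its own number. With the replicate block 4729 genes were higher and 5461 lower, 785 and 1740 by at least 2-fold. Of the 244 genes named above, Trem2 changed sign where only probe sets without a cross-match suffix were used (0.19, adjusted p = 0.11, limma); 31 called genes had no such probe set above the filter. Arrays limit the precision by their number, and M0 or M1 levels under the filter give differences without an exact size.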
